A study of Homo sapiens with 4 samples.

Results

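The transcripts described here were those read higher in both GATA1 knockdown clones than in their control on every array of the experiment. A probe was taken when its log2 ratio of knockdown over control was above 0.8 on all 4 arrays, and 60 of the 40974 probes measured on every array were, which is 0.146%. The 60 probes carry 54 gene names, of 30484 names on the array. The probes were thus selected on the measured log2 ratios themselves, so the ratios given below describe that selection and are not tested, and the word raised is used only as the name for passing the rule. In the opposite direction, 88 probes (0.215%) were below -0.8 on all 4 arrays.

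The cells were Meg-01, a human megakaryoblastic cell line. Clones GATA1 5-13 and GATA1 4-14 stably carried a lentiviral shRNA against GATA1, and each is a line expanded from 1 colony. The control, GATA1 Neg, was a pool of Meg-01 cells infected with a lentivirus whose shRNA has little homology to human genes. All 3 populations therefore carried a lentivirus and grew in RPMI medium with fetal bovine serum. On each of the 4 two-colour Agilent arrays 1 clone was hybridized against GATA1 Neg, with 2 arrays per clone and the dyes exchanged between them. The 2 arrays of a clone compare the same pair of cell populations, so n = 2 clones for every mean below, and both clones share the control. A property of 1 colony and an effect of the knockdown cannot be told apart in 2 clones.

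The zinc finger protein GATA1 binds DNA at the short word that gives it its name and is required for red cells and megakaryocytes to form. It activates some genes and, with other partner proteins, represses others. Among the raised transcripts were 5 genes that most tissues keep silent outside the testis, 3 class II genes of the HLA locus, and genes for enzymes, receptors and adaptors. The control GATA1 Neg already showed those 5 testis genes well above background.

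The GATA1 probe read -0.21 and -0.34 in GATA1 5-13 and -0.43 and -0.58 in GATA1 4-14, below 0 on all 4 arrays. Of 14 megakaryocyte markers on the array, 9 were well above background in GATA1 Neg, while PF4, RAB27B and SELP were above background on no array in either channel. All 8 erythroid markers were above background in GATA1 Neg. The 5 neuron markers on the array (MAP2, NEFL, SNAP25, SYP and SYT1) were above background on no array in either channel, and of 6 germ cell markers 2 were above it in GATA1 Neg, PRM1 and PRM2 on no array. No marker of any of these cell types was among the raised genes. The extraction note in the labels names CMK, another megakaryoblastic line, where every other label says Meg01. Between 61.6% and 66.4% of spots were well above background in the knockdown channel.

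The knockdown signal of all 60 raised probes was well above background on all 4 arrays. In GATA1 Neg 43 of them (71.7%) were above background on all 4 arrays, against 59.8% of all probes tested, 9 on 1 to 3 arrays and 8 on none. For a transcript that GATA1 Neg did not show above background on any array of a group, the difference is given below as at least N-fold: the mean knockdown signal over the mean, per array, of the higher of the probe's own control signal and the lowest control signal among probes above background, on loess- and Aquantile-normalized log2 channel values. In bulk RNA, more cells making a transcript and more transcript per cell cannot be told apart.

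The median log2 ratio of the 60 probes was 1.30 in GATA1 5-13 (0.83 to 3.97) and 1.59 in GATA1 4-14 (0.84 to 3.21), where the median over all probes was 0.00. Their mean over the clones lay between 0.89 and 3.02, and 36 probes were above 1 on all 4 arrays. The 2 arrays of a clone differed by 0.14 at the median probe of GATA1 5-13 and by 0.09 at that of GATA1 4-14, with maxima of 0.31 and 0.33. Without background correction 21 of the 60 probes still passed the rule.

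**Figure D1:**
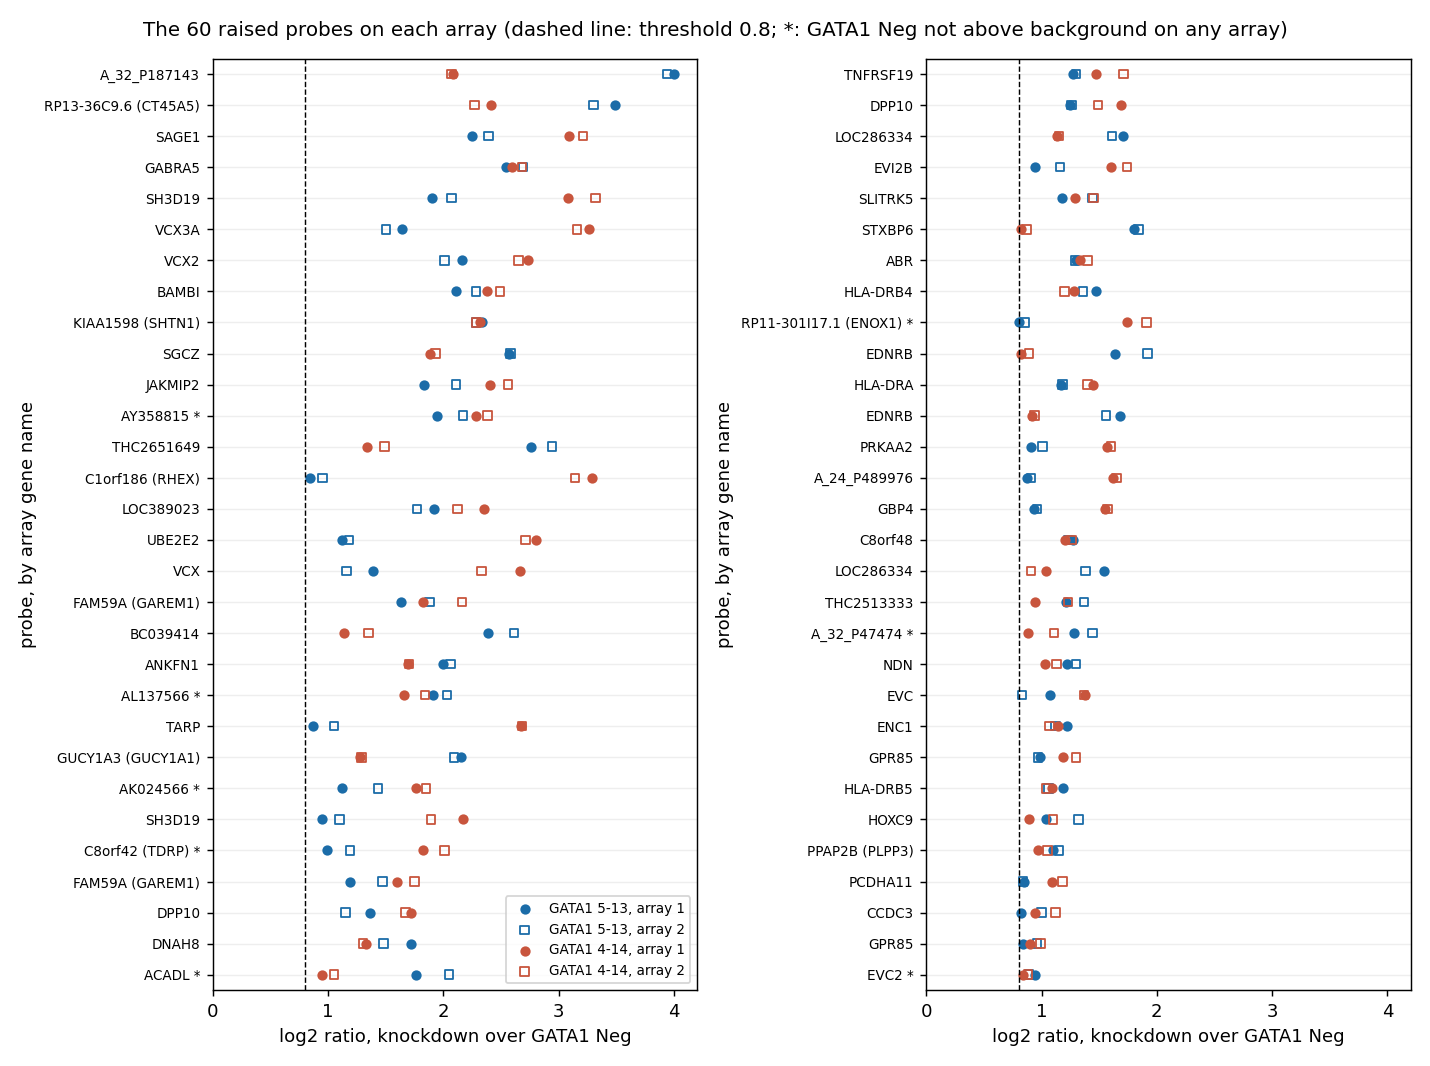
Log2 ratio of knockdown over GATA1 Neg (x axis) for each of the 60 raised probes (y axis, in order of their mean), with filled circles for array 1 and open squares for array 2 of a clone, in blue for GATA1 5-13 and red for GATA1 4-14. All points lie right of the dashed threshold at 0.8, the 2 arrays of a clone lie close together, and an asterisk marks the 8 probes whose GATA1 Neg signal was above background on none.

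Genes of the cancer-testis class, which encode proteins that healthy adults make mainly in testicular germ cells and that many tumours make as well, gave 5 raised names, all on the X chromosome. With the raised probes of all 5, GATA1 Neg was well above background on all 4 arrays. Its mean log2 signal ran from 9.67 for SAGE1 to 11.88 for CT45A5, both on the arrays of GATA1 5-13. SAGE1, a sarcoma antigen read at chrX:134821661-134821720 (hg18), had log2 ratios of 2.25 and 2.39 in GATA1 5-13 and 3.09 and 3.21 in GATA1 4-14. The CT45 family gene CT45A5 (RP13-36C9.6 on the array) had 3.49 and 3.30 in GATA1 5-13 and 2.41 and 2.27 in GATA1 4-14. Both genes were far above the threshold on every array, with SAGE1 higher in GATA1 4-14 and CT45A5 higher in GATA1 5-13. The array's other CT45 probe, for CT45A1, was not raised by the rule: it read 3.73 and 3.79 in GATA1 5-13 but -0.98 and -0.63 in GATA1 4-14. The CT45 genes are near-identical copies, so each of these probes may read several of them.

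VCX, VCX2 and VCX3A, the variable charge genes of distal Xp that are expressed in male germ cells, were all raised. VCX3A read 1.64 and 1.50 in GATA1 5-13 against 3.26 and 3.16 in GATA1 4-14. VCX2 read 2.16 and 2.01 against 2.73 and 2.65, and VCX read 1.39 and 1.16 against 2.66 and 2.33. In all 3 the arrays of GATA1 4-14 were above those of GATA1 5-13 with no overlap. A second VCX2 probe went another way, at 0.06 and -0.04 in GATA1 5-13 and -0.93 and -1.12 in GATA1 4-14, with both channels above background on all 4 arrays. The family is made of near-identical copies and the array files do not say which copies a probe detects, so the 3 names are uncertain as single genes. Of 75 genes of the cancer-testis and germ-cell list on the array, these 5 were raised and 4 (GAGE12F, MAGEA1, MAGEC2 and VCY) were lowered on all 4 arrays. The list's median log2 ratio was 0.03 and -0.01 in the 2 clones, against 0.00 in both over all names.

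The 3 VCX promoters are shown because the genes were raised together and share a family. Each sequence, from RefSeq on GRCh38.p14, runs from 250 bases before the transcript start to 50 bases after it, 5′ to 3′ on the gene's own strand, and capitals mark GATA words on either strand. The first of these words was AGATAA, a second form was AGATAG with another last base, a further form was TGATAA with another first base, and the last form was TGATAG where both differ. VCX lies at chrX:7842921-7843220 on the plus strand, VCX2 at chrX:8171218-8171517 and VCX3A at chrX:6535069-6535368, both on the minus strand.
VCX: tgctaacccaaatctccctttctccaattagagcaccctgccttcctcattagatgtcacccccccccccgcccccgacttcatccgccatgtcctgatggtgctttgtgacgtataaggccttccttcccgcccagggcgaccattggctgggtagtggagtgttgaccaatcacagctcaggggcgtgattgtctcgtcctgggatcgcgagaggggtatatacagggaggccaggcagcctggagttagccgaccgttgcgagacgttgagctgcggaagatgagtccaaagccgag
VCX2: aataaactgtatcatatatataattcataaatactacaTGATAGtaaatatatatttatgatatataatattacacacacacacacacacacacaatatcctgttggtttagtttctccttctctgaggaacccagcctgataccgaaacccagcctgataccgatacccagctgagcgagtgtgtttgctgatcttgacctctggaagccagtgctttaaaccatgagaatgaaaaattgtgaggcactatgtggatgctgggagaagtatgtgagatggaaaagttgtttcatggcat
VCX3A: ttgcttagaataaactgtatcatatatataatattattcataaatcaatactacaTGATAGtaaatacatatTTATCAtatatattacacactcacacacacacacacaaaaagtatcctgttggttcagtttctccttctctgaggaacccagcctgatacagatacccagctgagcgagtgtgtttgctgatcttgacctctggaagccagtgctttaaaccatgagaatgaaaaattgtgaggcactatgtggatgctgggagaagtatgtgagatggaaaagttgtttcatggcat
VCX2 and VCX3A were 85.6% identical over their windows in a global alignment, and both carry a TGATAG word, with a second word in VCX3A alone. The VCX window held none of these words and was 47.7% identical to that of VCX2. With the window of VCY, which is among the lowered genes, it was 94.7% identical. The VCX window held 16 CG dinucleotides, against 3 in VCX2 and 1 in VCX3A. A match is a description of letters and no evidence of binding.

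SAGE1 is shown because it had the highest mean in GATA1 4-14 among the raised X-linked probes outside the VCX family. Its window at chrX:135893466-135893765, plus strand, held 1 GATA word, on the reverse strand and at the transcript start, and 14 CG dinucleotides.
SAGE1: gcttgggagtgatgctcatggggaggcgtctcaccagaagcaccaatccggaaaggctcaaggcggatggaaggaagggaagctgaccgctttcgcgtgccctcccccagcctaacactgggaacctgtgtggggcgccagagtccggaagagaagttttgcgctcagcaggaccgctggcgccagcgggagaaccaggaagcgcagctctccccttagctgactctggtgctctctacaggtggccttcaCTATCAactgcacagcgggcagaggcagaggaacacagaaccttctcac

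The raised genes also included receptors and other membrane proteins, some of them best known from neurons. The gene lists for such proteins held few of them: 1 of 18 GABA-A subunits on the array was raised, and none of 66 other neurotransmitter receptors, 40 voltage-gated potassium channels, 39 neural adhesion genes of the immunoglobulin superfamily or 31 semaphorins, plexins and neuropilins. Among the 66, GLRA3 missed the rule narrowly at one probe, with 1.15 and 1.22 in GATA1 5-13 and 0.80 and 0.79 in GATA1 4-14. Its other probe read 0.64 to 1.13. The median of that list was 0.00 in GATA1 5-13 and 0.01 in GATA1 4-14. GABRA5, the alpha-5 subunit of the GABA-A receptor chloride channel, had log2 ratios of 2.54 and 2.69 in GATA1 5-13 and 2.59 and 2.68 in GATA1 4-14, so the clones overlapped, at a mean of 2.63 ± 0.02 (SD, n = 2 clones). The probes of GABRG3, another subunit gene on chromosome 15, read between -0.12 and 0.20 over the 4 arrays.

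SLITRK5, a leucine-rich repeat membrane protein of neurons, read 1.18 and 1.44 in GATA1 5-13 and 1.29 and 1.45 in GATA1 4-14. It was 1 of 7 SLITRK names on the array, and of the 10 other SLITRK probes the highest mean over the clones was 0.16, for SLITRK4. DPP10, a catalytically inactive dipeptidyl peptidase that accompanies Kv4 potassium channels, was raised with both of its probes, at 1.36, 1.15, 1.72 and 1.67 on the 4 arrays for the first and 1.25, 1.26, 1.69 and 1.49 for the second. GATA1 Neg showed the second DPP10 probe above background on 1 array, of GATA1 5-13, so that in GATA1 4-14 it was at least 3.01-fold higher. LOC389023 read 1.92 and 1.77 in GATA1 5-13 and 2.35 and 2.12 in GATA1 4-14. The array places it 692 kb before the nearer DPP10 probe, with no probe of another symbol between them. That distance is to the probe and not to the DPP10 gene, and whether LOC389023 lies inside the gene was not checked. All 3 probes were higher in GATA1 4-14.

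Further raised genes encode proteins of cell shape and adhesion. KIAA1598, now SHTN1, encodes shootin-1, which acts in axon outgrowth, and was among the most even of all: 2.33 and 2.28 in GATA1 5-13 and 2.32 and 2.28 in GATA1 4-14, a mean fold of 4.94. JAKMIP2, a coiled-coil protein named for Janus kinase and microtubule interaction, read 1.83 and 2.11 in GATA1 5-13 and 2.40 and 2.56 in GATA1 4-14. SGCZ, the zeta subunit of the sarcoglycan complex that links the cytoskeleton to the matrix in muscle, read 2.57 and 2.58 in GATA1 5-13 and 1.88 and 1.93 in GATA1 4-14. SH3D19, an SH3 domain adaptor that binds ADAM proteases, was raised with both probes: one read 1.90 and 2.07 against 3.08 and 3.32, the other 0.95 and 1.10 against 2.17 and 1.89, in GATA1 5-13 and GATA1 4-14. Both SH3D19 probes were thus higher in GATA1 4-14 on every array. The probe named PCDHA11 was the 1 raised probe of 7 for the protocadherin alpha cluster, with 0.85 and 0.84 in GATA1 5-13 and 1.09 and 1.18 in GATA1 4-14. It lies beyond the PCDHAC2 probe, toward the end of the cluster where the alpha isoforms share exons, so it may read any of them.

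Genes of signalling pathways were raised as well. BAMBI encodes a decoy receptor that lacks the kinase domain and dampens TGF-beta signalling. It read 2.11 and 2.28 in GATA1 5-13 and 2.38 and 2.49 in GATA1 4-14. TNFRSF19, a TNF receptor family member, read 1.27 and 1.30 in GATA1 5-13 and 1.47 and 1.71 in GATA1 4-14. Its other probe read 0.20 to 0.34 in clones that were not above background with it on any array. GAREM1 (FAM59A on the array), an adaptor of growth factor receptor signalling, was raised with both probes, at 1.63, 1.88, 1.82 and 2.16 and at 1.19, 1.47, 1.60 and 1.75. GPR85, an orphan G protein-coupled receptor of the brain, was raised with both probes just above the threshold, at 0.99, 0.97, 1.19 and 1.30 and at 0.84, 0.96, 0.90 and 0.99. EDNRB encodes the endothelin receptor B and is also listed by the study. Its 2 raised probes read 1.56 to 1.92 in GATA1 5-13 and 0.82 to 0.94 in GATA1 4-14, while both probes of EDNRA were above background on no array.

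RHEX (C1orf186 on the array), an adaptor of erythropoietin receptor signalling in red cell precursors, differed most between the clones. Its log2 ratio was 0.84 and 0.95 in GATA1 5-13 and 3.29 and 3.14 in GATA1 4-14, a difference of -2.32 for GATA1 5-13 minus GATA1 4-14. It passed the rule narrowly in one clone and was the highest of all raised probes in the other. The promoters of RHEX and TNFRSF19 are shown because each held a pair of GATA words, as did those of VCX3A, shown above, and of EDNRB and GPR85, which are not shown. RHEX lies at chr1:206083345-206083644 and TNFRSF19 at chr13:23570162-23570461, both on the plus strand.
RHEX: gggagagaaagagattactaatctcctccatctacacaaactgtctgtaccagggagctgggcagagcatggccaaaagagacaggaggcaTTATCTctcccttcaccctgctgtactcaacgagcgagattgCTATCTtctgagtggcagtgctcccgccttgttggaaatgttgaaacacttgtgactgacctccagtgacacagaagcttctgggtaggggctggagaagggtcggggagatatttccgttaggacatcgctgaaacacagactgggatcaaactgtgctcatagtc
TNFRSF19: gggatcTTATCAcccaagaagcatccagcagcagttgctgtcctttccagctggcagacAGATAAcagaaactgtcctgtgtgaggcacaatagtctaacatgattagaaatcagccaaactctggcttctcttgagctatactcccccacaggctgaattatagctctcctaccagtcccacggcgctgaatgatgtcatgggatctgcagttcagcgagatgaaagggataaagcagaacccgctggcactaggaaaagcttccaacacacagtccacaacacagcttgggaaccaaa
In RHEX both words are on the reverse strand, and in TNFRSF19 one is on each strand. The windows held 6 and 4 CG dinucleotides.

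Among the raised enzyme genes, GUCY1A1 (GUCY1A3 on the array), the alpha subunit of the soluble guanylate cyclase that senses nitric oxide, read 2.15 and 2.09 in GATA1 5-13 and 1.28 and 1.29 in GATA1 4-14. BC039414, a transcript 6.48 kb beyond that probe, followed it with 2.39 and 2.61 against 1.14 and 1.35. GUCY1B1, the beta subunit that completes the enzyme, lies next along the chromosome and missed the rule in 1 clone, with 1.36 and 1.43 in GATA1 5-13 and 0.43 and 0.49 in GATA1 4-14. All 3 were higher in GATA1 5-13 with no overlap, and GUCY1A2, elsewhere in the genome, was above background on no array.

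PRKAA2, the alpha-2 catalytic subunit of AMP-activated protein kinase, read 0.91 and 1.01 in GATA1 5-13 and 1.57 and 1.60 in GATA1 4-14. Its 2 other probes were also above 0 on all 4 arrays, with means of 0.64 and 0.47 over the clones. PRKAA2 was the 1 raised gene of 7 AMP-activated protein kinase subunits on the array. PLPP3 (PPAP2B on the array), which dephosphorylates lipid phosphates at the cell surface, lies within the same 219 kb of chromosome 1 and read 1.10, 1.15, 0.97 and 1.05. ACADL, the long-chain acyl-CoA dehydrogenase of mitochondrial fatty acid oxidation, was higher by at least 3.49-fold in the first clone and by at least 1.67-fold in the second, with log2 ratios of 1.76, 2.05, 0.95 and 1.05. It was the 1 raised gene of 19 enzymes of that pathway on the array. UBE2E2, a ubiquitin-conjugating enzyme, read 1.12 and 1.18 in GATA1 5-13 and 2.80 and 2.71 in GATA1 4-14.

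HLA-DRA, the alpha chain of the HLA-DR molecule that presents peptides to helper T cells, read 1.17 and 1.18 in GATA1 5-13 and 1.45 and 1.40 in GATA1 4-14. Its beta chain partners HLA-DRB4 (1.47, 1.36, 1.28 and 1.20) and HLA-DRB5 (1.19, 1.06, 1.09 and 1.04) were raised too. The remaining DRB probes were also above 0 on all arrays except HLA-DRB6: the second HLA-DRB5 probe read 0.58 to 1.05, the HLA-DRB3 probes 0.40 to 0.81 and HLA-DRB1 0.40 to 0.59. DRB genes are alike in sequence and differ between people in copy number, so a probe's name may not be the gene it read in this line. No DP or DQ probe was raised. HLA-DPA1 read 1.02 and 1.07 in GATA1 5-13 and 0.03 and -0.04 in GATA1 4-14 at its higher probe. HLA-DPB1 was above 0 on all 4 arrays at both probes, with 0.97, 0.72, 0.40 and 0.40 at the higher one. The highest HLA-DQB1 probe read 0.26 and 0.25, then 1.00 and 1.06, and the highest HLA-DQA1 probe read 0.39, 0.50, 0.21 and 0.13. In all, 3 of 37 class II probes were raised, and 11 of the 37 had the knockdown signal above background on all arrays.

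GBP4, an interferon-induced guanylate-binding protein, read 0.93 and 0.96 in GATA1 5-13 and 1.55 and 1.57 in GATA1 4-14. Its neighbour GBP5 read 0.55 and 0.68, under the threshold, and then 2.83 and 2.88, while GBP1, GBP2 and GBP3 had means between -0.16 and 0.22. EVI2B, a membrane protein of blood cells whose gene lies inside an intron of NF1, read 0.94 and 1.16 in GATA1 5-13 and 1.60 and 1.74 in GATA1 4-14. Its neighbour EVI2A read 0.42 and 0.57, then 1.22 and 1.33. TARP, a transcript of the T cell receptor gamma locus, read 0.87 and 1.05 in GATA1 5-13 and 2.67 and 2.68 in GATA1 4-14. In GBP4, EVI2B and TARP alike GATA1 4-14 was the higher clone on every array. Of 6 T and B lymphocyte markers on the array, CD3E and CD79A were above background on all 4 arrays in both channels, and CD2, CD3D and MS4A1 on no array in either. None of the 6 was raised, and the part of such cells in these values was not tested.

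Of the cilium genes, EVC and EVC2, whose products work together in Hedgehog signalling at the base of the cilium, were both raised at low values. EVC read 1.07, 0.83, 1.38 and 1.37 and its other probe 1.07, 1.28, 0.71 and 0.99. In GATA1 4-14 the control was above background with the raised EVC probe on no array, so there it was at least 2.59-fold higher. EVC2 exceeded the control at least 1.89-fold in the first clone and at least 1.79-fold in the second, with log2 ratios of 0.94, 0.89, 0.84 and 0.88. The RefSeq starts of this gene pair lie 2642 bases apart, pointing away from each other. DNAH8, a dynein heavy chain of cilia and sperm tails, read 1.72, 1.48, 1.33 and 1.30. CRMP1, which the array reads beside EVC, stayed between -0.04 and 0.12 in the 2 clones' means. Of 6 other names within 500 kb of the pair, JAKMIP1 had the highest mean over the clones, 0.73.

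The remaining raised genes with a symbol were ANKFN1, TDRP, STXBP6, ABR, ENOX1, NDN, C8orf48, ENC1, HOXC9 and CCDC3. ANKFN1, an ankyrin repeat protein, read 2.00, 2.06, 1.69 and 1.70, and an unnamed probe 36.0 kb further along read 1.28, 1.44, 0.88 and 1.11. GATA1 Neg was above background with the unnamed probe on no array, so GATA1 5-13 exceeded it at least 2.29-fold and GATA1 4-14 at least 1.64-fold. NDN, the imprinted growth suppressor necdin of the Prader-Willi region, read 1.22, 1.30, 1.03 and 1.13, while MAGEL2 and MKRN3 beside it had means of 0.12 and 0.01. HOXC9, a homeobox transcription factor, read 1.04, 1.32, 0.89 and 1.10, and HOXC8 was higher in GATA1 5-13 only, with 1.29 and 1.20 at its brighter probe against -0.04 and -0.05. The vesicle fusion protein STXBP6 read 1.80 and 1.84 in GATA1 5-13 and 0.82 and 0.87 in GATA1 4-14. C8orf48, 522 kb from SGCZ, read 1.27, 1.23, 1.20 and 1.26. TDRP (C8orf42 on the array), a testis protein, was at least 2.13-fold and at least 3.60-fold higher in GATA1 5-13 and GATA1 4-14, and AK024566, within the same 40.4 kb, at least 2.43-fold and at least 3.21-fold. By array position AK024566 overlaps FBXO25, whose probe 16.6 kb from it had means of -0.13 in GATA1 5-13 and 0.18 in GATA1 4-14. ABR, ENC1 and CCDC3 had means of 1.33, 1.14 and 0.97. ENOX1 was at least 1.66-fold and at least 2.94-fold higher.

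Of the 60 probes, 12 could not be matched to a current gene symbol, and one of them had the largest mean of all. A_32_P187143 at chr12:118565139-118565198 (hg18) read 4.00 and 3.94 in GATA1 5-13 and 2.08 and 2.07 in GATA1 4-14, folds of 15.7 and 4.21. The nearest probes with a symbol, CCDC60 at 123 kb and PRKAB1 at 37.9 kb, read -0.01 and 0.43 in GATA1 5-13 and 0.06 and -0.03 in GATA1 4-14. THC2651649, 10.3 kb from the HELB probe on chromosome 12, read 2.76 and 2.94 in GATA1 5-13 and 1.34 and 1.49 in GATA1 4-14, where HELB read 0.04 and -0.18.

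AY358815 lies between probes of NCAM1, a neural cell adhesion gene that the study also names. Over both clones it was higher by at least 4.42-fold. The NCAM1 probes 15.1 and 15.7 kb to its sides had means of 0.62 and 0.09 in GATA1 5-13 and 0.82 and 0.16 in GATA1 4-14. AL137566, 11.8 kb from the progesterone receptor probe PGR, was at least 3.77-fold and at least 3.07-fold higher, with PGR at 0.55 and 0.61. Both LOC286334 probes were raised (1.71, 1.61, 1.13 and 1.15 for the first), and ZNF618 beside them read 0.88 and 0.51. THC2513333, 3.09 kb before the SHTN1 probe, read 1.21, 1.37, 0.94 and 1.23.

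The clones differed from each other at many of the raised probes. The 2 arrays of one clone did not overlap those of the other at 49 of 60 probes, of which 29 were higher in GATA1 4-14 and 20 in GATA1 5-13. Over all 40974 probes the clones' arrays did not overlap at 49.5%, with GATA1 4-14 higher at 25.2% and GATA1 5-13 higher at 24.2%. The members were chosen on these same arrays, so their count is a description and was not tested against that share. The median size of the difference between the clones' means was 0.43, and 11 probes differed by over 1. In GATA1 4-14 the largest excess belonged to RHEX, TARP, VCX3A, UBE2E2 and VCX, with 5-13 minus 4-14 differences from -2.32 to -1.22. In GATA1 5-13 it belonged to A_32_P187143, THC2651649, BC039414, CT45A5 and STXBP6, from 1.90 to 0.98. At the other end, SHTN1, C8orf48, GABRA5 and ENC1 had clone SDs of 0.04 or less. Colony and extent of knockdown cannot be told apart between the clones.

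**Figure D2:**
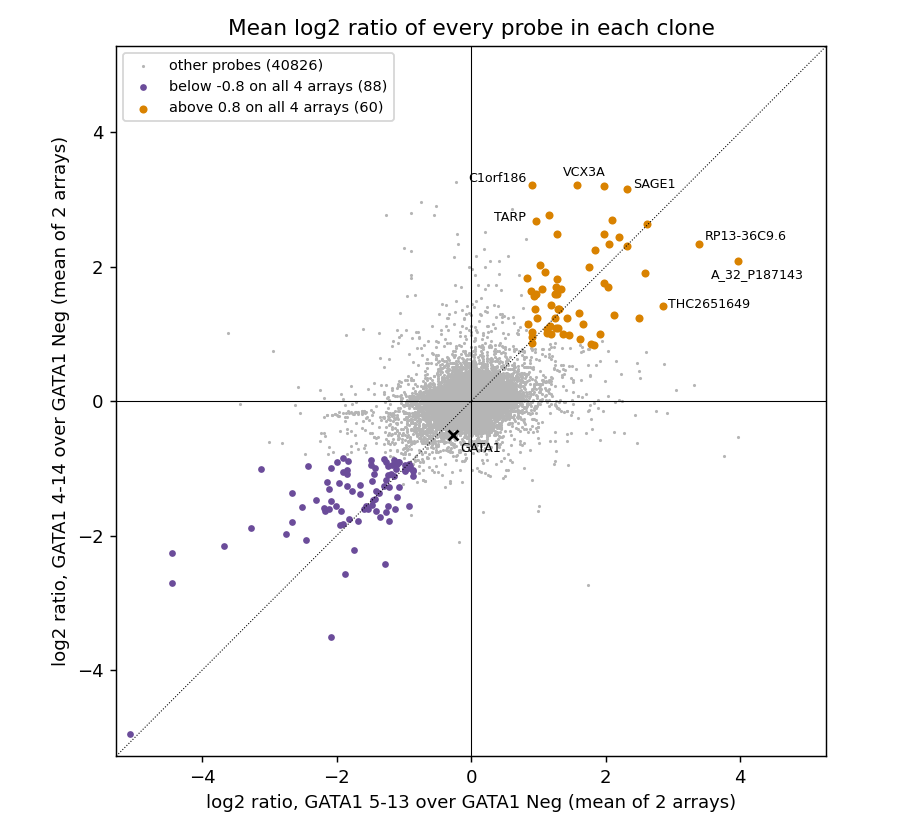
Mean log2 ratio over GATA1 Neg in GATA1 5-13 (x axis) and GATA1 4-14 (y axis) for all 40974 probes, with the 60 raised probes in orange, the 88 lowered probes in purple and GATA1 as a cross. The dotted line marks equal ratios; C1orf186 and TARP lie well above it and A_32_P187143 and THC2651649 well below it.

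By position on hg18, 59 of the 60 probes fell on 18 chromosomes, with none on 16, 19, 20, 21, 22 or Y. The X chromosome held 6 (10.2%), where it holds 3.48% of the probes tested, chromosome 4 held 6 (10.2% against 4.13%) and chromosome 13 held 5 (8.47% against 1.92%). These are counts of probes and not of separate genes or loci. The X probes were those of the VCX family and of the SAGE1 and CT45 locus. On chromosome 4 they were the SH3D19 pair, GUCY1A1 with BC039414, and EVC with EVC2. The chromosome 13 probes were TNFRSF19, ENOX1, SLITRK5 and the EDNRB pair. Joining raised probes within 1 Mb of each other gave 41 loci, and 11 loci with several raised names held 24 probes (40.7%). Of the 88 lowered probes, 15 (17.0%) lay in such loci, and that difference was not tested. Several of the 11 raised loci pair a gene symbol with an array name that has none. These were DPP10 with LOC389023, GUCY1A1 with BC039414, TDRP with AK024566, SHTN1 with THC2513333 and ANKFN1 with A_32_P47474. Whether the paired names are separate genes was not checked, so the 11 are not loci of distinct genes.

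Around the raised probes, other probes were near 0 at the median. Within 500 kb of a raised probe lay 657 other probes of 488 names, whose median log2 ratio was 0.01 in each clone, and 5 of these names (1.02%) had a mean above 0.8 against 0.476% of all names on the array. Those within the loci shown were CT45A1, GUCY1B1 and PNPLA4; the others were GBP5 and EVI2A. At the X locus of SAGE1, CT45A5 and the unnamed probe A_24_P489976 (0.87, 0.91, 1.62 and 1.65), INTS6L and MMGT1 at either side had means between -0.35 and 0.23. Of the 15 other names within 500 kb of that locus, CT45A1 had the highest mean over the clones (1.48) and CT55 the lowest (-0.57). Between VCX and VCX2, PNPLA4, a lipase family gene, differed between the clones, with means of 0.07 and -0.23 in GATA1 5-13 and 2.15 and 3.25 in GATA1 4-14 at its 2 probes. At the HLA locus, 52 other names within 500 kb had medians of 0.02 and 0.04, and the higher HLA-DRB3 probe had 0.78 and 0.74. SLC18A2, 394 kb from the middle of the SHTN1 locus, was lower than in GATA1 Neg, at -0.95 and -0.24.

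**Figure D3:**
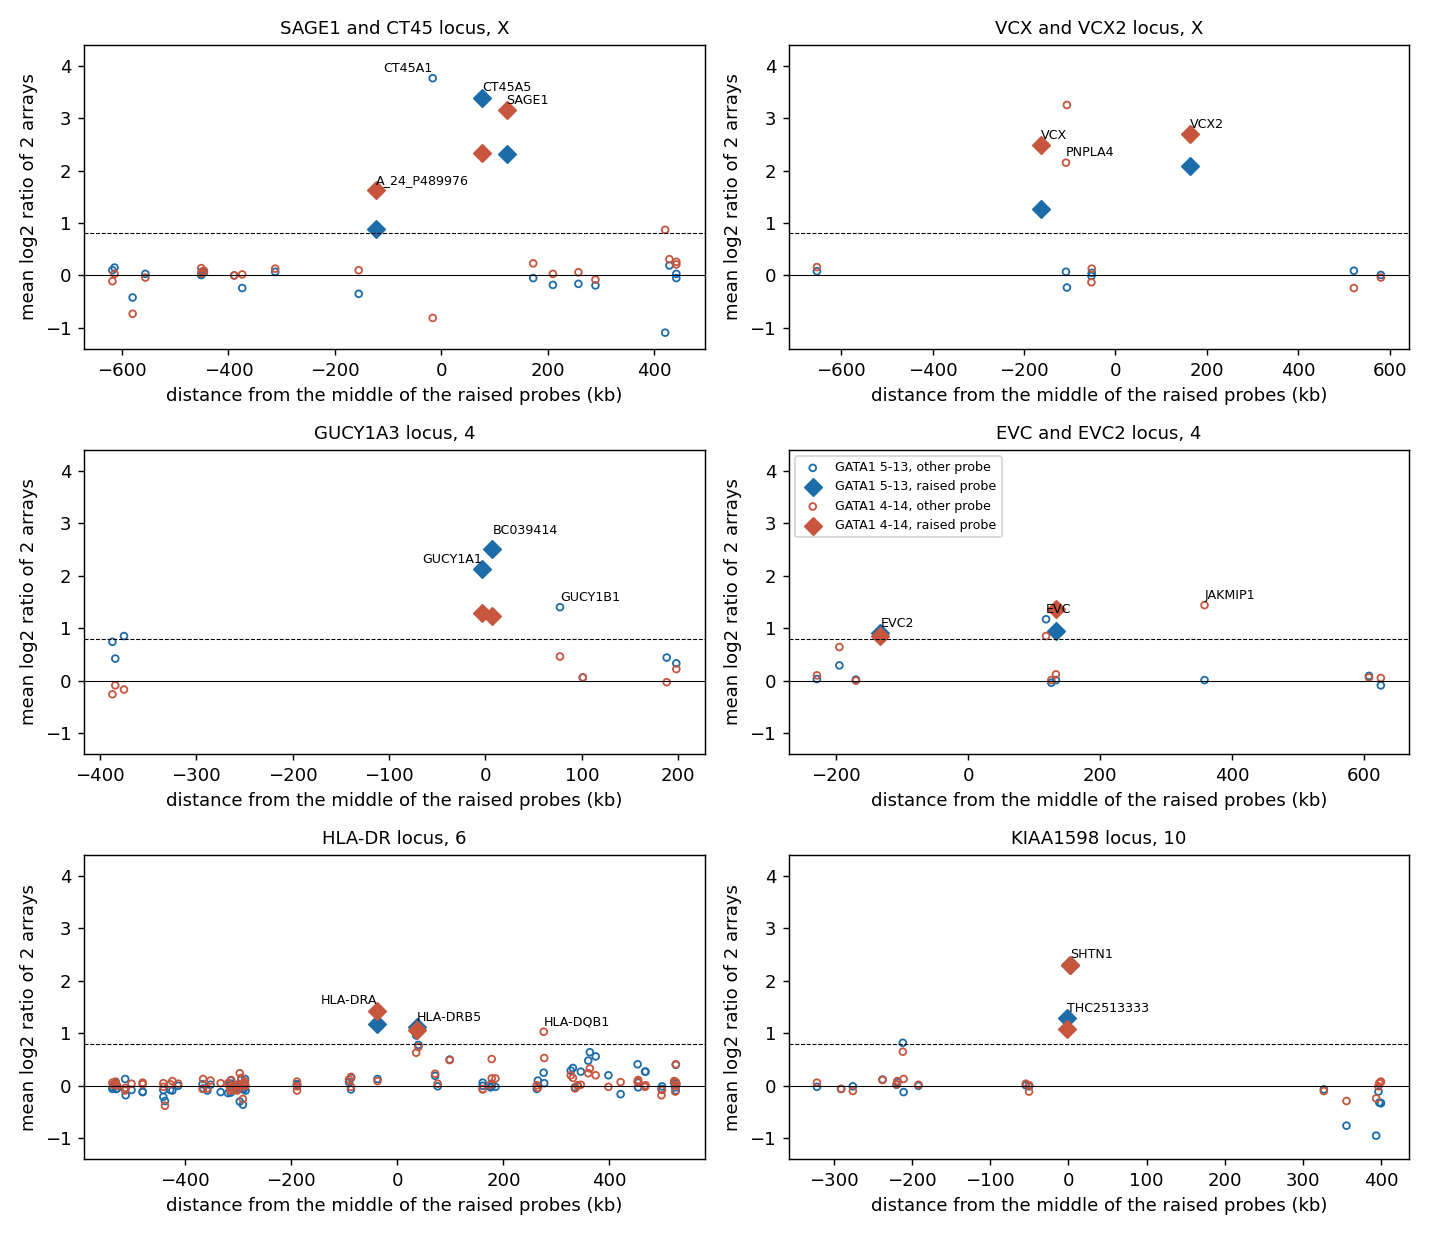
Mean log2 ratio over GATA1 Neg (y axis) of every array probe around 6 loci with several raised names, by distance in kb from the middle of the raised probes (x axis), GATA1 5-13 in blue and GATA1 4-14 in red, with diamonds for raised probes and circles for others. Most circles lie near 0 beside diamonds at 0.86 to 3.39, and CT45A1 and PNPLA4 are far from 0 in 1 clone only or in opposite directions.

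Where a raised gene had further probes, most of these were also above 0. The array carries 11 other probes for 9 of the raised names, and 9 of the 11 were above 0 on all 4 arrays, with a median of 0.76 over all 11. Over all probes tested 12.8% were above 0 on all 4 arrays. Of 7 other probes with the knockdown signal above background on all arrays, 6 were above 0 on all of them, and the exception was VCX2. The second STXBP6 probe was at 1.85, 1.65, 0.82 and 0.73, and another STXBP6 probe, above background on no array, lay between -0.04 and 0.08. These probes were hybridized with the same RNA on the same arrays and are no further replicate.

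**Figure D4:**
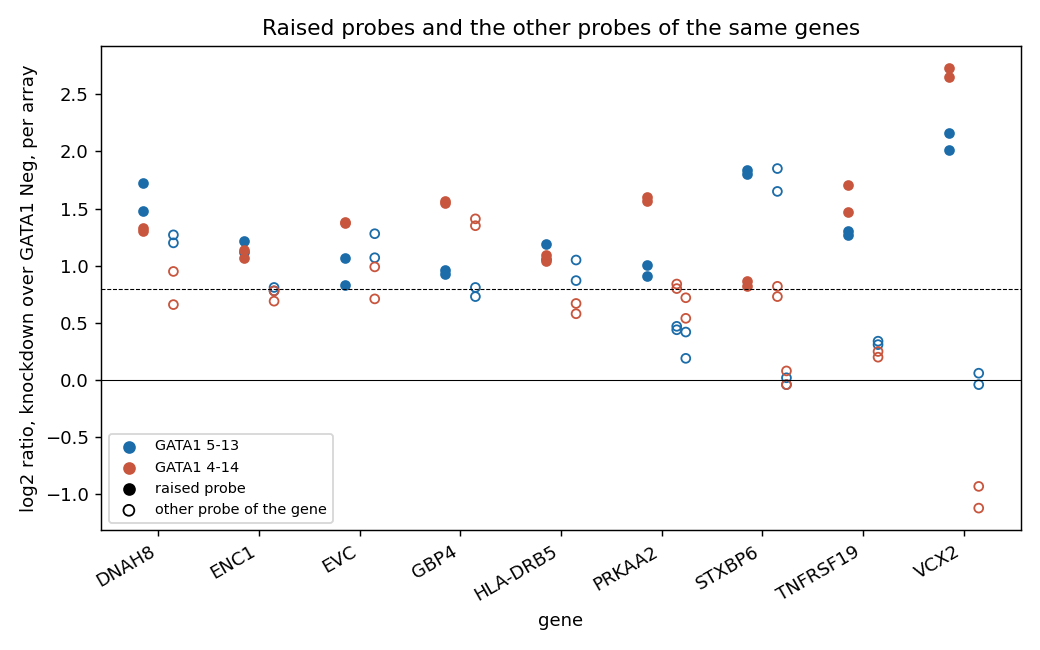
Log2 ratio of knockdown over GATA1 Neg on each array (y axis) for the 9 raised genes with another probe (x axis), with filled points for raised probes and open points for the others, GATA1 5-13 in blue and GATA1 4-14 in red. Open points lie above 0 for most genes, near 0 for 1 STXBP6 probe, and at or below 0 for VCX2.

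Of 19 gene lists compared with the raised names, 5 held at least 1 and 14 held none. Beside the neural lists given above, those with none included 21 megakaryocyte and platelet genes on the array. The list of the distal Xp22.3 segment had the VCX genes as its 3 raised members of 20 on the array. In total 8 raised names were on a list and 46 on none.

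RefSeq promoters were available for 32 of the raised names. Of these, 10 (31.2%) held at least 1 of the 4 GATA words on either strand: DPP10, EDNRB, GBP4, GPR85, JAKMIP2, RHEX, SAGE1, TNFRSF19, VCX2 and VCX3A. The share was 18.4% over the 13960 genes of the array with a promoter and 25.5% over all 27305 promoters. The VCX2 and VCX3A windows were 85.6% identical and share a TGATAG word, so they are not separate hits. The TATAAA word occurred in 1 promoter, of GPR85 (3.12%, against 8.67% for the array). The raised promoters held a median of 14 CG dinucleotides, from 1 in ENOX1 and VCX3A to 53 in UBE2E2, where promoters of array genes held a median of 23. Their ratio of observed to expected CG was above 0.6 in 56.2%, against 69.6% for the array. These shares were not tested.

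Near the threshold the rule separated probes of almost equal values. The 5 raised probes nearest to it, of ENOX1, STXBP6, CCDC3, EDNRB and EVC, had their lowest array between 0.804 and 0.832. The 5 nearest outside, of THC2636507, LOC283140, GLRA3, RBMY2FP and SLC24A3, had theirs between 0.771 and 0.799. SLC24A3, a sodium, calcium and potassium exchanger, reached 2.32 and 2.50 in GATA1 4-14 and was left out by 1 array of GATA1 5-13.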

How the data were processed

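RNA from each Meg-01 clone and GATA1 Neg was amplified, labelled with either of a pair of Alexa dyes and co-hybridized on Agilent 4 x 44K arrays. The authors deposited Agilent Feature Extraction output (version 9.5.3.1, positions on hg18) with mean and background intensity per spot and channel, and log10 ratios of red over green; the series-wide values deposited were those log10 ratios with the sign turned to knockdown over GATA1 Neg (largest difference 4.97e-06). Here, mean intensity was background-corrected with limma 3.58.1 (R 4.3.3; normexp, offset 50) over all spots, normalized within arrays by loess on the 43376 non-control spots, and 135 to 152 outlier spots per array were dropped. Spots were averaged per probe, and log2 ratios turned to knockdown over GATA1 Neg from the labelled dyes. 40974 of 41000 probes had a value on all 4 arrays. The number of arrays limits the precision. No test was run on the members. Named in full were the 15 largest means, names with several raised probes, members within 1 Mb of another, members on a list, the 5 largest clone differences each way and the 5 probes on each side of the threshold. Names were updated through RefSeq accessions (48 of 60 probes matched; 9 symbols changed), and positions are those of the array files. The rule was also run on simulated intensities with known changes and independent noise on each array. That simulation held no clone or control-pool effect, so it says nothing of either. Alternatives were other background corrections, normalizations, thresholds, and leaving out arrays or clones. The members and lists were chosen with earlier results of these data known.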

Additional observations from a re-analysis of the deposited data

How the results depend on the processing

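How many probes pass the rule depends on how dim signals are treated. Without background correction 21 probes of 21 names passed, all of them among the 60, with medians over the original 60 of 0.83 and 0.85 in GATA1 5-13 and GATA1 4-14, and 1 had GATA1 Neg above background on no array. With Feature Extraction log ratios, or the series-wide values, 149 probes of 133 names passed, including all 60, with medians over the original 60 of 2.01 and 2.25, and 51 had GATA1 Neg above background on no array. With normexp offset 0 these were 96 probes, 86 names, medians over the original 60 of 1.78 and 1.91, and 22. Median centring kept 49 of the 60, of which 4 had GATA1 Neg above background on no array. At a threshold of 0.6 the counts were 112 probes, 100 names and 13 with no control signal, with a median over the probes passing of 1.07 in GATA1 4-14, and at 1 they were 36, 34 and 3, with a median of 1.71 in GATA1 5-13. Keeping outlier spots, or requiring the knockdown signal above background, left these counts and medians as they were. Leaving out 1 array gave 61 to 69 probes, and leaving out 1 clone 205 (without GATA1 5-13) or 308 (without GATA1 4-14). Over all of these the names ran from 55 to 266, probes on X from 6 to 20, those with no control signal from 8 to 39, and the medians from 1.29 to 1.38 in GATA1 5-13 and 1.56 to 1.59 in GATA1 4-14. The mean log2 ratio of no raised probe changed sign under any of these settings that kept the threshold. No paired analysis was possible because the result comes from no test. With 2 clones and 1 control pool, no error of the control is measured, and dim control signals leave 8 of the 60 ratios as bounds in both clones. The second DPP10 probe and the raised EVC probe are bounds in GATA1 4-14 only.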
